A study of Mus musculus and Ictidomys tridecemlineatus with 36 samples.

Results

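The Spalt-like genes *Sall1*, *Sall2*, *Sall3*, and *Sall4* encode zinc finger transcription factors, and their chromatin was examined in CUT&RUN peak lists from whole P2 mouse retina. The members are the 4 annotated genes of the family among 21938 protein-coding genes of GENCODE release M21. For each gene, peaks of 5 targets were taken within 1 kb of any annotated transcript start (TSS), here called promoter peaks, and in the gene body plus 50 kb on each side, here called the window. The study set P5 retina of 13LGS, a ground squirrel with a retina rich in cones, beside P2 retina of mouse, which is rich in rods, and it holds 36 CUT&RUN libraries, of which 20 are from mouse. Mouse libraries came from 2 biological replicates, each a pool of snap-frozen retinas from 3 animals, with no genetic or drug treatment named and no strain given in the labels. There were 2 libraries each for H3K4me3, H3K27ac, H3K4me1, and the IgG control, 4 for Neurod1, and 8 for Otx2, the last made with 2 antibodies. Each target has 1 list of peaks called on its pooled libraries against IgG. The lists therefore carry no spread between replicates, and their read depth is unknown, so every value below is a description without an error or a test.

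CUT&RUN releases and sequences the DNA around an antibody-bound histone mark or protein. H3K4me3 lies at promoters, H3K4me1 at enhancers and the flanks of promoters, and H3K27ac at promoters and enhancers in an active state. Otx2 and Neurod1 are transcription factors of photoreceptor precursors. Spalt-like proteins bind AT-rich DNA, and most of them recruit the NuRD complex, a nucleosome remodeler and histone deacetylase. *Sall1* is needed for kidney development and for the identity of microglia, and *Sall2* for closure of the optic fissure. *Sall3* is needed for cone photoreceptors and horizontal cells, and *Sall4* maintains pluripotent and germline cells. In whole retina, a mark present in few cells and a weak mark in many cells cannot be told apart.

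The 4 genes carried 4 different sets of promoter peaks. *Sall2* had H3K4me3, H3K27ac, H3K4me1, and Otx2, *Sall3* had H3K4me3, H3K4me1, and Otx2, *Sall1* had H3K4me3 and H3K4me1, and *Sall4* had H3K4me1 alone. H3K4me3 was thus found at 3 of 4 members, where 56.0% of all protein-coding genes had such a peak, and H3K4me1 at 4 of 4 against 63.6%. H3K27ac was found at 1 of 4 members against 22.6% of genes, and Otx2 at 2 of 4 against 51.0%. Neurod1 had no promoter peak at any member, and only 5.76% of genes had one. With 4 members, these shares do not set the family apart from other genes. The sets rested in part on weak peaks. With peaks of a −log10 q of 5 or more, 3 different sets were left, and *Sall3* had H3K4me1 alone, as *Sall4* did. Within 500 bp of a TSS there were also 3, and *Sall1* had H3K4me1 alone. The number was 3 too with an overlap of at least 250 bp and with the 5′ end of each gene alone. With lists of equal length no member had a promoter peak.

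**Figure D1:**
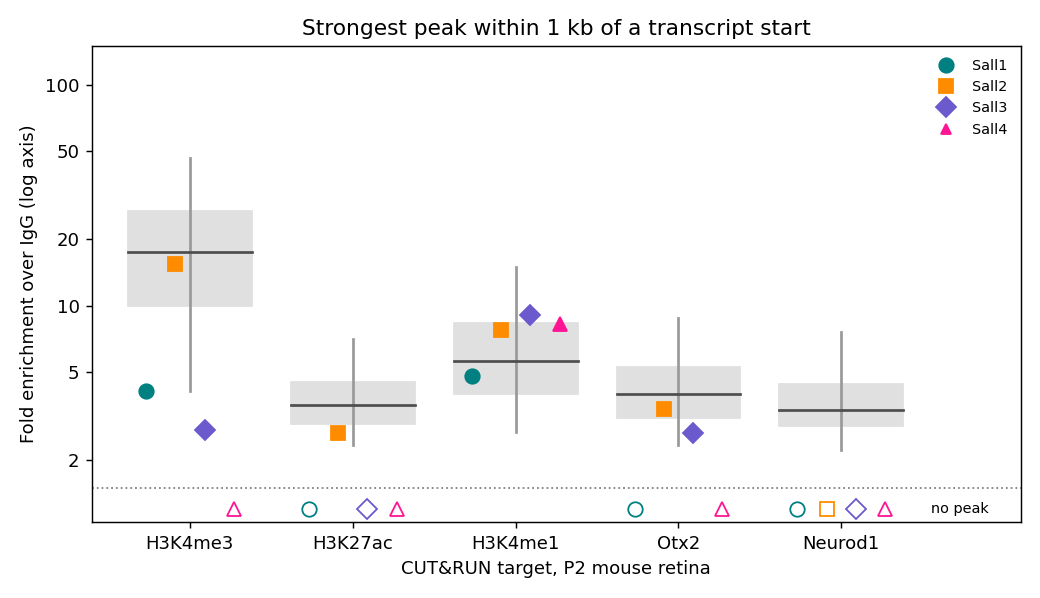
Fold enrichment over IgG (log axis) of the strongest promoter peak of each Sall gene for 5 targets, with open symbols where no peak was called. Grey boxes, lines, and whiskers give the 25th to 75th percentile, median, and 5th to 95th percentile of all protein-coding genes with a peak. *Sall2* lies near the H3K4me3 median of 17.5, whereas *Sall1* at 4.11 and *Sall3* at 2.75 lie in the lower tail.

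The tissue was checked against marker genes of the retina and of other tissues. H3K4me3 promoter peaks were present at 8 of 8 retinal progenitor genes and 6 of 8 photoreceptor precursor genes, and at 0 of 5 liver and 0 of 5 heart muscle genes. Over all protein-coding genes the share was 56.0%. *Cx3cr1* and *P2ry12*, which define microglia, had no H3K4me3 promoter peak. H3K4me1 was present at 3 of 5 heart muscle genes, *Tnnt2*, *Actc1*, and *Myh7*, at 7.98, 6.90, and 6.27. It was also present at 1 of the 5 genes listed for liver, the transthyretin gene *Ttr*, at 16.5. H3K27ac was present at *Tnnt2* and Otx2 at *Ttr*. Over all protein-coding genes, 63.6% had an H3K4me1 promoter peak, 22.6% had H3K27ac, and 51.0% had Otx2. The H3K4me1 and H3K27ac counts at heart muscle genes were thus near those of any gene.

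*Sall1* (ENSMUSG00000031665.7) lies on the minus strand at chr8:89027235-89044162 of GRCm38 and has 1 annotated TSS at its 5′ end. Its H3K4me3 peak spanned 819 bp, at 89042629-89043447, 4.11-fold over IgG and with a −log10 q of 5.16. Of the 12289 genes with an H3K4me3 promoter peak, 94.96% had one at least this strong. The peak did not sit on the GENCODE TSS. Its summit lay 1395 bp inside the gene, in the first intron, and it counted as a promoter peak because its edge came within 1 kb of the start. RefSeq also places *Sall1* transcript starts inside the gene at 89042862 and 89043512. The start at 89042862 was 95 bp from this summit. The 250 bases before 89042862 are shown beside the 250 bases before the GENCODE start at 89044162, because H3K4me3 covered only the former. The first was covered by H3K4me3 over all 250 bases and held no H3K4me1. The second was covered by H3K4me1 over all 250 bases and held no H3K4me3. Capitals mark CpG dinucleotides, and both are written 5′ to 3′ on the minus strand from RefSeq for GRCm38.p6.
*Sall1* internal start, chr8:89042863-89043112: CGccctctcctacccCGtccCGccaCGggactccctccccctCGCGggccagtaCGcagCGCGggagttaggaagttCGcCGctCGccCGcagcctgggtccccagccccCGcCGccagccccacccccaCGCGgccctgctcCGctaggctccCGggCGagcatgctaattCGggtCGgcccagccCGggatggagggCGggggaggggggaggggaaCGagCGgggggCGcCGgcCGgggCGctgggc
*Sall1* 5′ start, chr8:89044163-89044412: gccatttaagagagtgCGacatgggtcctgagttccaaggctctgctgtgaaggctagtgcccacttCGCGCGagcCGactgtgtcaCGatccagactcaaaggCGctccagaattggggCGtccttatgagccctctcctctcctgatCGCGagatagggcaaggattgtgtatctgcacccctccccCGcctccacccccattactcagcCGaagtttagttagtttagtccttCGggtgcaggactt
The internal stretch held 30 CpG dinucleotides and was 78.4% G and C. The 5′ stretch held 13 CpG and was 56.4% G and C. The 250 bases before the start at 89043512, not shown, held 25 CpG and were 74.4% G and C. They were covered by H3K4me1 over all 250 bases and held no H3K4me3. Of the 3 stretches, H3K4me3 thus lay only on the one with the most CpG. A link between CpG number and the mark was not tested. Over 32851 RefSeq promoters cut to the same 250 bases, the median was 6 CpG, and 5.94% held 30 or more.

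H3K4me1 flanked the *Sall1* H3K4me3 peak on both sides. One peak at 89043221-89046569 covered the 5′ end of the gene with a fold enrichment of 4.80, slightly below the median of 5.64 over genes with an H3K4me1 promoter peak. The other lay in the first intron at 89040843-89042800 with 4.20. The H3K4me3 peak shared 399 bp with the pair and filled the gap between them. No H3K27ac, Otx2, or Neurod1 peak was called at the promoter or in the window of 116.9 kb, which holds no other protein-coding gene. At least 1 H3K27ac peak was present in the windows of 68.5% of protein-coding genes, and at least 1 Otx2 peak in those of 78.0%. Widening the window to 100 kb on each side added 1 Otx2 peak and left H3K27ac at 0 peaks.

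The strongest H3K4me1 peak of the *Sall1* window lay beyond the 3′ end of the gene. It spanned 2728 bp at 89023757-89026484, had a fold enrichment of 9.64, and lay within 1 kb of the start of the microRNA gene *Mir8110*. Only 13.2% of all H3K4me1 peaks were at least this strong. The 7 H3K4me1 peaks of the window ranged from 2.46 to 9.64. Their density of 5.99 per 100 kb was close to the median gene at 6.04.

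*Sall2* (ENSMUSG00000049532.11, chr14:52311172-52328762, minus strand) has a pair of TSSs, one at the 5′ end of the gene at 52328762 and one inside it at 52316323. The marks differed between them. The internal TSS carried H3K4me3 at 52315544-52317199 15.5-fold over IgG and with a −log10 q of 86.1, and 56.7% of genes with an H3K4me3 promoter peak were at least as strong. The 5′ TSS carried a smaller H3K4me3 peak of 4.02. H3K4me1 showed the reverse order, with 7.76 next to the 5′ TSS and 3.76 and 2.51 around the internal one. Among the 4 genes, *Sall2* alone held H3K27ac at a promoter. That peak lay at the internal TSS, at 52316543-52317096, and was weak, with a fold enrichment of 2.67 against a median of 3.58. At the same TSS, Otx2 gave a pair of peaks of 3.40 and 2.17, both inside the H3K4me3 peak. The stronger one shared 427 of its 529 bp with the H3K27ac peak. No H3K27ac or Otx2 peak was called within 1 kb of the 5′ TSS.

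The sequence before the internal *Sall2* TSS is shown because 4 targets met on it. Its 250 bases were covered by H3K4me3 in full, by H3K4me1 over 153 bases, by Otx2 over 133, and by H3K27ac over 31. Capitals mark CpG dinucleotides, and the sequence is written 5′ to 3′ on the minus strand from RefSeq for GRCm38.p6.
*Sall2* internal start, chr14:52316324-52316573: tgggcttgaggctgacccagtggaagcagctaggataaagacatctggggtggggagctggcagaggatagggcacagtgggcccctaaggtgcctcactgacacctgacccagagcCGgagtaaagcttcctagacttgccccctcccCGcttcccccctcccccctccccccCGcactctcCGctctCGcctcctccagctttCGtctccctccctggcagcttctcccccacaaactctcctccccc
It held 6 CpG and was 64.4% G and C. RefSeq places the 5′ start at 52328670, and the 250 bases before that start held 0 CpG, were 28.0% G and C, and overlapped no peak of the 5 targets. The H3K4me1 peak of 7.76, at 52326647-52328668, ended just short of these bases. The letters TAATCC, a form of the Otx2 motif, were in neither *Sall2* sequence on either strand, nor in the 3 *Sall1* promoters of the table, and 6.25% of all promoters of the same length held them. CAGATG, a form of the Neurod1 E-box, was in both *Sall2* sequences and in 14.4% of all promoters.

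**Figure D2:**
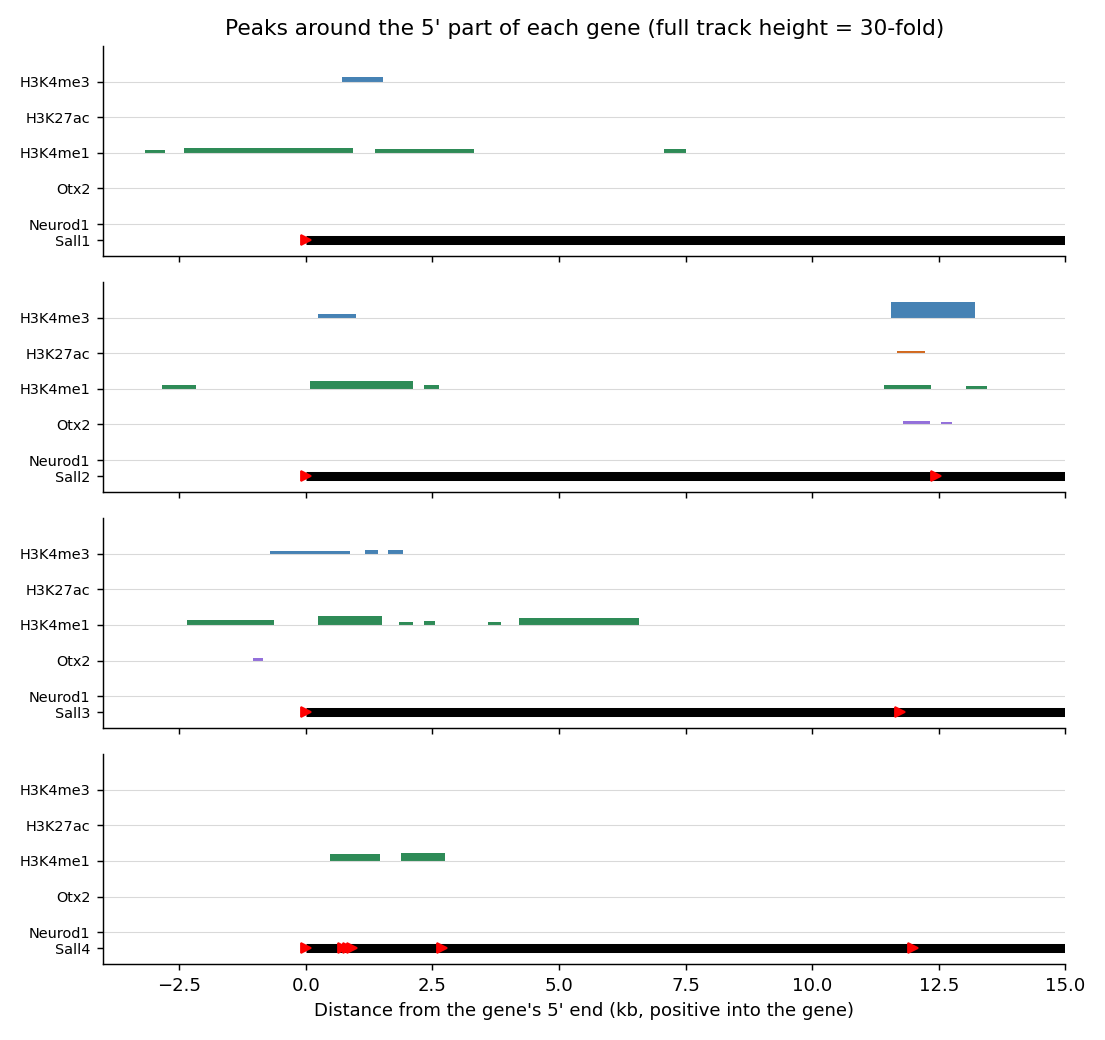
Peaks of 5 targets between 4 kb upstream and 15 kb downstream of the 5′ end of each Sall gene. The black bar is the gene, red arrowheads are annotated TSSs, and the height of each box is its fold enrichment over IgG, drawn to one scale. H3K4me3 lay inside the gene between H3K4me1 peaks at *Sall1* and in 3 pieces at *Sall3*, and was not called at *Sall4*. At *Sall2* it reached 15.5 at the internal TSS and 4.02 near the 5′ TSS.

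Most other peaks of the *Sall2* window belonged to neighbours. The window holds 5 other protein-coding genes, among them *Tox4* and the RNA methyltransferase gene *Mettl3*. H3K4me3 reached 27.1 at the shared start of *Rab2b* and *Tox4* and 21.6 at *Mettl3*. Otx2 reached 8.51 and 7.02 at the same places, both above its promoter median of 3.99. A further Otx2 peak of 2.74 within 1 kb of a *Mettl3* transcript start overlapped no histone peak. With these, *Sall2* had the highest Otx2 density of the family at 4.25 per 100 kb, and 18.6% of genes had a window at least as dense. In the gene body itself there were 2 Otx2 peaks of 5.

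*Sall3* (ENSMUSG00000024565.9, minus strand, chr18:80966376-80986771) carried the weakest H3K4me3 promoter peak of the 3 members that had one. It spanned 1581 bp across the 5′ end of the gene and was 2.75-fold over IgG with a −log10 q of 2.83, and 99.6% of genes with such a peak were at least as strong. Short H3K4me3 peaks of 3.90 and 3.62 followed inside an intron of *Sall3*, with summits 1348 and 1665 bp from the 5′ end. They were stronger than the peak on the TSS but lay outside the 1 kb limit. H3K4me1 was strong over the same stretch. Its peak at 80985259-80986536 reached 9.10, the highest H3K4me1 promoter value of the family, and 21.02% of genes with an H3K4me1 promoter peak were at least as strong. A second one upstream had 4.41. No H3K27ac peak was called at the promoter or in the window. One Otx2 peak of 2.65 had its summit 977 bp upstream of *Sall3*, in an exon of the divergent noncoding gene *Gm27239*, and lay inside the upstream H3K4me1 peak. Its −log10 q was 2.40, and 88.9% of genes with an Otx2 promoter peak were at least as strong.

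The window of *Sall3* was the richest of the family in H3K4me1. It held 16 H3K4me1 peaks, or 13.3 per 100 kb, and 10.5% of protein-coding genes had a window at least as dense. By bases covered, 22.3% of genes reached its level, since several of the peaks were short. With a −log10 q of at least 5, 9 of the 16 were left. Of the 16, 5 had their summit in *Sall3*, and 1, of 8.36, lay within 1 kb of a TSS of the neighbour *Atp9b*. The strongest, of 14.4 at 80943985-80946336, lay between *Sall3* and *Atp9b*, 41.9 kb from the 5′ end of *Sall3* on its 3′ side. Only 4.93% of all H3K4me1 peaks were at least this strong, and an Otx2 peak of 3.07 lay wholly inside it. Another strong H3K4me1 peak of 9.57 lay 5.41 kb upstream of the gene, and one of 7.08 lay in the gene. None of these 3 overlapped H3K4me3 or H3K27ac. The strongest H3K4me3 and Otx2 peaks of the window, of 26.5 and 6.32, lay within 1 kb of an *Atp9b* TSS.

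The only Neurod1 peak in any of the 4 windows was also at *Sall3*. It spanned 243 bp at 81014477-81014719, 27.8 kb upstream of the gene, at 3.56-fold over IgG and a −log10 q of 12.7. It lay inside an H3K4me1 peak of 2.88 that held no H3K27ac. At least 1 Neurod1 peak was found in the windows of 29.0% of protein-coding genes. Of the whole Neurod1 list, 28.7% overlapped H3K4me1 without H3K4me3 or H3K27ac, and 40.1% overlapped H3K27ac without H3K4me3.

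*Sall4* (ENSMUSG00000027547.17, chr2:168748332-168767943, minus strand) had no H3K4me3, H3K27ac, Otx2, or Neurod1 peak within 1 kb of any of its 6 TSSs. Its promoter peaks were both H3K4me1, one at 168765195-168766064 with a fold enrichment of 8.32 and one at 168766485-168767462 with 6.83. Both folds were above the promoter median of 5.64. Each peak also lay within 1 kb of a TSS of *Gm14261*, which is not protein-coding. The summit of the second was in introns of both *Sall4* and *Gm14261*. H3K4me1 without H3K4me3 or H3K27ac was found at the promoters of 10.6% of protein-coding genes, and none of the 5 targets at 31.3%.

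The *Sall4* window had the highest H3K27ac density of the family, at 7.52 peaks per 100 kb, and 8.71% of genes had a window at least as dense. Of its 9 H3K27ac peaks, 8 lay in introns of the neighbouring gene *Atp9a*, which encodes a phospholipid flippase, and they ranged up to 5.72. The gene body of *Sall4* held none. The remaining peak was intergenic, 22.9 kb upstream of *Sall4*, with a fold enrichment of 4.003. It shared 471 bp with an H3K4me1 peak of 6.84 and overlapped neither factor. The only H3K4me3 peak of the window, of 29.8, marked *Atp9a*, and a pair of Otx2 peaks of 3.58 and 2.498 lay within it.

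One Otx2 peak near *Sall4* lay away from any gene. It spanned 402 bp at 168809999-168810400, 42.3 kb upstream of *Sall4*, with a fold enrichment of 3.87, and lay wholly inside an H3K4me1 peak of 5.70. The Otx2 motif TAATCC was on the minus strand of this peak, 106 bp from its summit. The site is shown because its peak was the only one with a summit outside genes among the Otx2 peaks searched. TAATCC was also in the Otx2 peaks of 2.74 and 7.02 near *Mettl3* in the *Sall2* window, 51 and 164 bp from their summits. The site shown is read from GRCm38, plus strand, with the reverse complement of the motif in capitals.
*Sall4* upstream Otx2 peak, chr2:168810151-168810196: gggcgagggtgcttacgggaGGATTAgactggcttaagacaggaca
Of the 8 Otx2 peaks in the windows of *Sall2* and *Sall4*, 0 held TAATCC within 50 bp of the summit and 2 within 150 bp, on either strand. Over the 28127 Otx2 peaks of the list that were searched, the shares were 2.44% and 18.3%. *Sall1* had no Otx2 peak, and the peaks of *Sall3* were not searched.

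**Figure D3:**
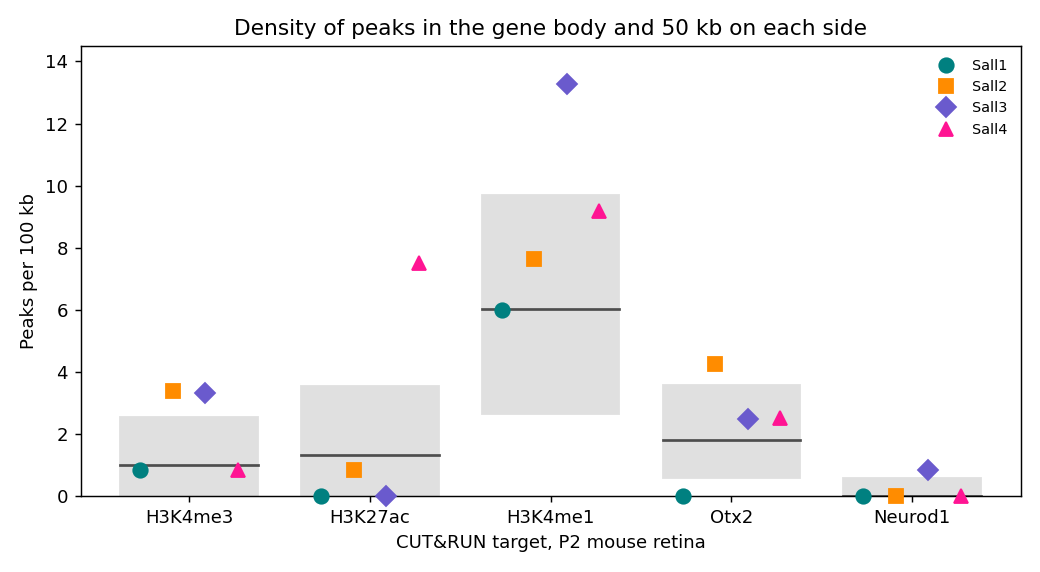
Peaks per 100 kb in the gene body and 50 kb on each side of the 4 Sall genes, for 5 targets. Grey boxes and lines give the 25th to 75th percentile and the median of all protein-coding genes. *Sall3* stands above the box for H3K4me1 at 13.3 and *Sall4* for H3K27ac at 7.52, whereas *Sall1* has no H3K27ac, Otx2, or Neurod1 peak. Also above the box are *Sall2* and *Sall3* for H3K4me3 at 3.40 and 3.32, *Sall2* for Otx2 at 4.25, and *Sall3* for Neurod1 at 0.831.

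Counted over the 4 windows, there were 10 H3K4me3, 10 H3K27ac, 43 H3K4me1, 11 Otx2, and 1 Neurod1 peaks. H3K4me3 peaks were present in 4 of 4 windows, where 74.0% of genes had at least 1, and H3K4me1 peaks in 4 of 4, where 86.4% had at least 1. H3K27ac was present in 2 of 4 against 68.5% of genes, Otx2 in 3 of 4 against 78.0%, and Neurod1 in 1 of 4 against 29.0%. Neighbouring promoters took part in these numbers. Of the 10 H3K4me3 peaks, 4 lay at a TSS of the Sall gene itself and 4 at the TSS of another protein-coding gene. Of the 11 Otx2 peaks, 3 lay at a Sall TSS and 6 at another gene's. Otx2 folds at neighbours ranged from 2.498 to 8.51 and those at Sall promoters from 2.17 to 3.40, so the ranges overlapped. By histone mark, 7 of the 11 Otx2 peaks overlapped H3K4me3, 3 overlapped H3K4me1 alone, 1 overlapped no mark, and 0 overlapped H3K27ac without H3K4me3. In the whole Otx2 list these shares were 43.3%, 26.9%, 7.20%, and 22.6%.

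**Figure D4:**
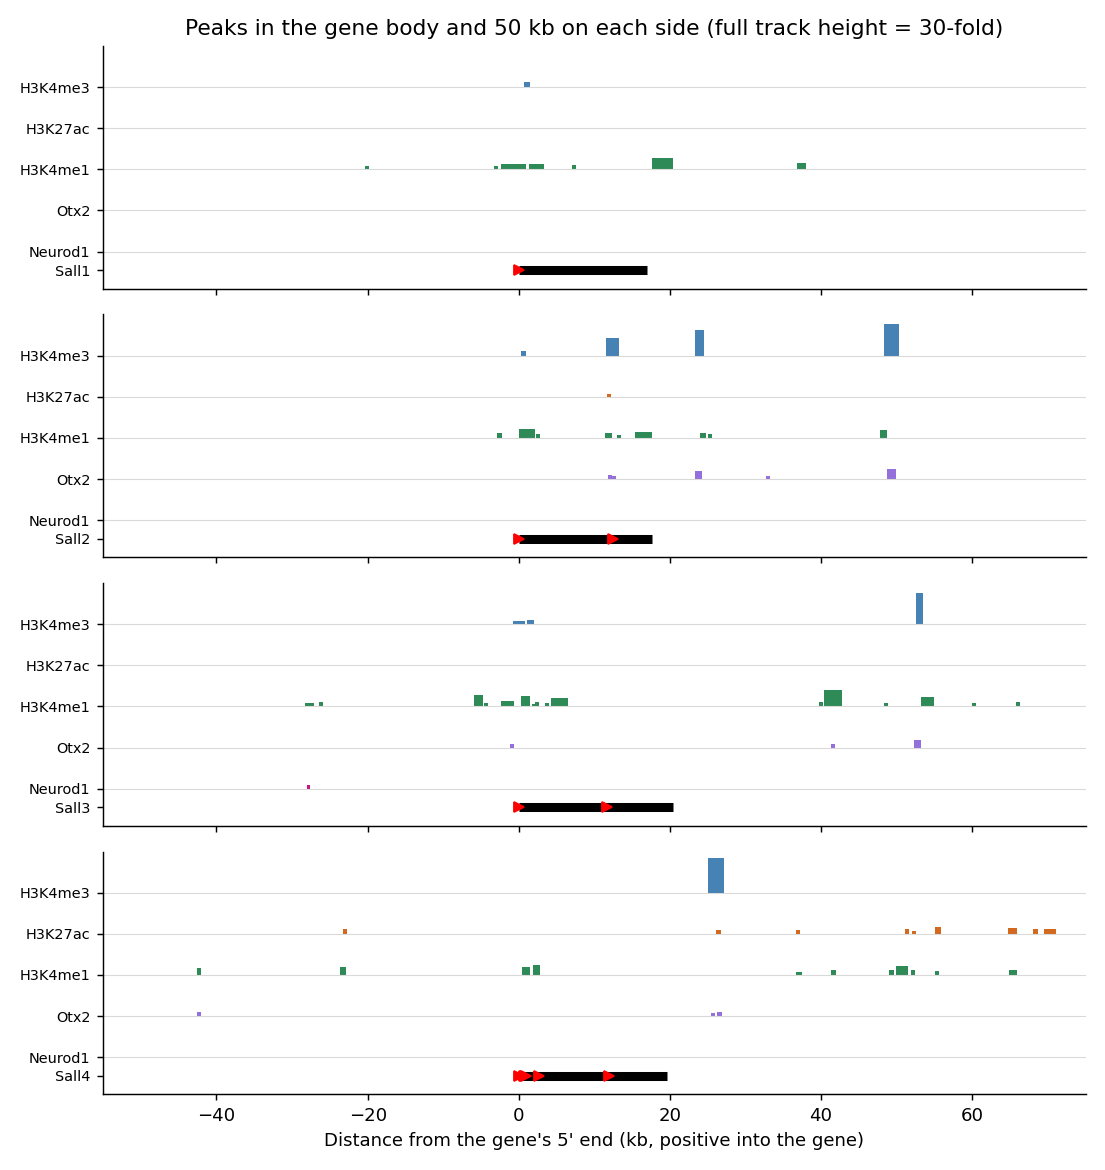
Peaks of 5 targets in the window of each Sall gene, by distance from its 5′ end in kb, positive into the gene. The black bar is the gene, red arrowheads are annotated TSSs, and box height is fold enrichment over IgG on one scale. The tall H3K4me3 boxes beyond the 3′ ends of *Sall2*, *Sall3*, and *Sall4*, from 21.6 to 29.8, lie at neighbouring genes, and the tallest H3K4me1 box, of 14.4, lies 41.9 kb from the 5′ end of *Sall3*.

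The promoters of the 3 members with H3K4me3 were then set beside those of all 12289 genes with that mark. Otx2 was present at 86.4% of these genes, and at *Sall2* and *Sall3* but not *Sall1*. H3K4me1 without H3K27ac was present at 56.4%, and at *Sall1* and *Sall3*. H3K27ac was present at 37.1%, and at *Sall2*. *Sall1* was thus among the genes with H3K4me3 and no Otx2, which were the smaller group.

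Genes whose marks were most like those of each member were found by ranking every protein-coding gene on 10 measures, the promoter fold and the window density of each target. Likeness is the mean difference in percentile over the 10 measures, which share libraries and neighbouring windows. The promoter peaks given below for the closest genes were part of the ranking, so they are no separate support for it. *Sall3* was closest to *Isl2* and *Six2*, both homeobox genes, and to *Sema6b*, at 5.67 to 6.25 percentile points. *Isl2* had a promoter fold of 5.79 for H3K4me3 and 6.62 for H3K4me1, and no H3K27ac peak. *Sall1* was closest to the hormone receptor gene *Crhr1*, then *Fosl2* and *Ccrl2*, at 1.35 to 2.03. *Sall2* was closest to *Zfp61*, *Cnih1*, and *Fam69b*, at 4.45 to 4.88. *Sall4* was closest to *Spx*, *Tspo2*, and *Crocc2*, at 3.46 to 3.65, and none of these had H3K4me3 at the promoter. The members were not close to each other. They differed by 19.7 points for *Sall1* and *Sall4* up to 27.4 for *Sall1* and *Sall2*, while the median gene differed from a member by 21.1 to 27.3.

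Genes that work with the family, or in the cells that need it, were counted in the same way. Of 13 genes of the NuRD complex, 13 had an H3K4me3 promoter peak, 13 had Otx2, and 10 had H3K27ac. The shares of all protein-coding genes were 56.0%, 51.0%, and 22.6%. Among the genes with an H3K4me3 promoter peak, 86.4% had Otx2 and 37.1% had H3K27ac. The H3K4me3 folds of the NuRD genes ran from 13.9 at *Mbd3* to 48.8 at *Mta2*, with 31.6 at the remodeler gene *Chd3*. The lowest of these folds was near *Sall2* and above the other members. Of 17 genes of cone photoreceptors and horizontal cells, 9 had H3K4me3, 15 had H3K4me1, 10 had Otx2, and 3 had H3K27ac. Over all protein-coding genes the shares were 56.0%, 63.6%, 51.0%, and 22.6%, so the counts for H3K4me3, Otx2, and H3K27ac were near those of any gene. In this list *Prox1*, a homeobox gene of horizontal cells, reached 41.4 for H3K4me3. *Cngb3*, a subunit of the cone cyclic nucleotide-gated channel, had 2.79, close to *Sall3*, and the cone arrestin gene *Arr3* had no H3K4me3 peak and 4.63 for H3K4me1. Among these 17 genes, 6 had H3K4me3 and H3K4me1 without H3K27ac, as *Sall1* and *Sall3* did, and so did 31.6% of all protein-coding genes.

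Of 10 genes of pluripotent cells, the setting in which *Sall4* acts, 3 had an H3K4me3 promoter peak, 6 had H3K4me1, 4 had Otx2, 1 had H3K27ac, and 1 had Neurod1. Over all genes the shares were 56.0%, 63.6%, 51.0%, 22.6%, and 5.76%. Those with H3K4me3 were *Sox2*, *Klf4*, and *Tbx3*, at 55.1, 10.1, and 66.5, and *Sox2* is also a retinal progenitor gene. *Nanog* and *Dppa2* had none of the 5 targets. *Pou5f1*, which encodes the pluripotency factor Oct4, was the gene with Neurod1, at 7.18, and also had H3K4me1 at 4.21 and Otx2 at 2.78. H3K27ac was at *Sox2*.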

How the data were processed

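CUT&RUN peaks from P2 mouse retina were used for 5 targets. According to the methods and submitters' processing notes, the authors trimmed reads (Trim Galore 0.6.4, cutadapt 3.5), aligned them with Bowtie2 to GRCm38, removed duplicates, and called peaks with macs2 jointly over the libraries of a target against IgG at a q-value of 0.05. The deposited fold enrichment is the ratio, at a peak, of the pooled libraries to IgG. The deposited −log10 q is the significance macs2 gave the peak. Neither was rescaled. Peaks on the blacklist had been removed. Since the lists hold no read totals, depth is unknown and no interval is given.

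Peaks were joined to GENCODE M21 in Python 3.11.15 (numpy 2.4.6, pandas 2.3.3, pysam 0.24.0, matplotlib 3.10.9) by an overlap of at least 1 bp. The overlap code was tested on simulated intervals against bedtools 2.31.1. 0 peaks lay beyond the ends of the reference chromosomes, and 5 of 5 *Sall1* and *Sall2* promoter sequences equalled the genome. Genes named are the 4 members, the 3 genes most like each, and from each list the first by name, the highest, and the lowest for H3K4me3 promoter fold. For lists with several genes at 0, the lowest with a peak was named. *Cx3cr1*, *P2ry12*, *Sox2*, *Nanog*, *Pou5f1*, and the heart muscle and liver genes were chosen after their values were seen. The count over the microglial list is not reported here. Members and lists were chosen with earlier results of these data known. Promoter sequences of *Sall3* and *Sall4* were not used here. The 13LGS lists, H3K27me3, and H3K9me3 were not analysed here. Alternatives are given in the closing section.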

Additional observations from a re-analysis of the deposited data

How the results depend on the processing

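No value has a replicate error, and no library could be left out, because each list pools its libraries. No paired analysis was possible because the results come from no test on single libraries. Under every alternative except equal list lengths, 4 members kept an H3K4me1 promoter peak and 0 had one of Neurod1, and the number with H3K4me3 stayed at 3 except within 500 bp of a TSS and at a −log10 q limit of 5, where it was 2. With the 4744 peaks of highest −log10 q per target, the numbers of members with a promoter peak fell to 0 for H3K4me3, H3K27ac, H3K4me1, and Otx2. With a −log10 q of at least 5, members with a promoter peak became 0 for H3K27ac and 1 for Otx2, window peaks became 6 for H3K27ac and 6 for Otx2, and Otx2 window peaks on a histone peak became 6. With an overlap of at least 250 bp, 1 member had Otx2 at its promoter. Within 500 bp of a TSS, the number was also 1, and the values of *Sall1* for H3K4me3 and of *Sall3* for Otx2 became 0. With the 5′ end of each gene alone, H3K27ac was at 0 members and Otx2 at 1, and *Sall2* had 4.02 for H3K4me3, 0 for H3K27ac, and 0 for Otx2. In gene bodies alone there were 6 H3K4me3, 1 H3K27ac, 15 H3K4me1, 2 Otx2, and 0 Neurod1 peaks. With 100 kb on each side there were 23 H3K27ac, 66 H3K4me1, 19 Otx2, and 2 Neurod1 peaks. The Otx2 motif count rose from 0 to 2 summits within 150 bp. In total, 109 of these recomputed values stayed within 1.5 times the reported one and 28 did not, and for values of single windows the numbers were 119 and 29. The shares of all protein-coding genes with a promoter peak stayed within 1.5 times for all 5 targets under the TSS alternatives.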

Other observations

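Many peaks of these lists shared their values with another peak. Of all H3K4me1 peaks, 96.0% had both the fold enrichment and the −log10 q of at least 1 other peak of the list, as did 96.0% of H3K27ac peaks, 78.2% of Otx2 peaks, 56.7% of H3K4me3 peaks, and 56.4% of Neurod1 peaks. In the windows of the Sall genes, 43 of 43 H3K4me1, 10 of 10 H3K27ac, 8 of 11 Otx2, 4 of 10 H3K4me3, and 1 of 1 Neurod1 peaks had such a partner.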
